A study of Mus musculus with 15 samples.

Results

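Cep55 and 9 other genes of cytokinesis and abscission, 10 of the 55359 genes in each deposited table, were read in RNA-seq libraries of mouse hematopoietic progenitors. They were found by gene symbol: Cep55, Kif23, Racgap1, Prc1, Aurkb, Ect2, Anln, Pdcd6ip, Tsg101 and Chmp4b. All 10 passed the filter on low counts, as did 14548 genes in all. The set was chosen by the level of Cep55, which was lower in cells with the R525H vector than in cells with empty vector, both in the heterozygous line. That comparison is therefore described with no test for these genes, and Cep55 is not tested in any comparison that uses either of those groups.

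The cells come from fetal liver and carry Hoxb8, which keeps progenitors dividing while β-estradiol is in the medium. A heterozygous knockout line, Ddx41+/-, received a retrovirus with the DDX41 mutant R525H (Het R525H), the DDX41 mutant G173R (Het G173R), wild-type DDX41 (Het DDX41) or no insert (Het empty). A line with both gene copies, Ddx41+/+, received only the virus with no insert (WT empty). Infected cells were sorted for GFP, and each of the 5 groups has 3 libraries. The DDX41 protein unwinds RNA as a member of the DEAD-box family, and R525H and G173R are substitutions found in human disease. There is 1 line for each genotype, so an effect of the missing Ddx41 copy and any other contrast of the 2 lines cannot be told apart. The labels do not say whether libraries of a group came from separate cultures; p-values therefore reflect only how far these samples spread, and that spread may be technical.

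Cytokinesis starts when microtubules between the separating chromosomes are bundled into the central spindle, which tells the cell cortex where to assemble a ring of actin and myosin. The ring draws the membrane in until the daughters are joined by a thin bridge with the midbody at its centre. Cep55 is a coiled-coil protein that gathers at the midbody late in division and recruits Pdcd6ip (also called Alix) and Tsg101, which bring in the ESCRT-III filaments that cut the bridge. Blood progenitors go through cytokinesis as they divide, and whether the cells here depend on Cep55 for it was not tested.

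For 12 of the 15 libraries the group code in the name of the deposited file disagrees with the sample's title. The groups here follow the titles, so what a value says about a given vector rests on them. Total expected counts were 22104066 to 49145873 per library. The knocked-out gene separated the genotypes as labelled: Ddx41 had 27.8 to 36.9 CPM (read counts scaled to a common library total, with TMM factors) in the 12 heterozygous libraries, against 55.6 to 63.4 CPM in the 3 of WT empty. It averaged 32.1 in Het R525H, 33.3 in Het G173R, 33.1 in Het DDX41 and 30.3 in Het empty, which overlapped, so it checks the line of a library and not its vector. The progenitor genes Kit, Flt3, Cd34, Ptprc, Spi1 and Mpo had at least 36.5 TPM (a level corrected for transcript length) in each library. Among markers of other cell types, the hepatocyte gene Alb, the red cell globin gene Hba-a1 and the fibroblast gene Col1a1 were listed at 0 throughout. Cd3e, Epcam, Afp and Hbb-bs reached at most 2.87 TPM. The endothelial gene Pecam1 was at 1.76 to 7.68 TPM and Adgre1, a macrophage marker, at 43.4 to 164 TPM.

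All 10 genes were well expressed, within about the same range of levels. On the TPM scale, averaged over the 15 libraries (± SD), Aurkb stood at 71.6 ± 7.61, Chmp4b at 69.1 ± 2.72 and Kif23 at 61.4 ± 8.53. Prc1 followed at 48.1 ± 2.79, Cep55 at 39.8 ± 8.27, Racgap1 at 39.2 ± 3.17 and Anln at 38.1 ± 3.5. Ect2 was at 35.2 ± 4.77, Pdcd6ip at 32.9 ± 3.24 and Tsg101 at 25.5 ± 2.5. Neighbours in this order overlapped in their range over the libraries at every step. Between 892.99 (Tsg101) and 8095 (Anln) expected counts stood behind a gene's value in a library. For 8 of the genes the expected count was whole in all 15 libraries. It was whole in 1 library for Tsg101 and in 0 for Prc1, so reads of these 2 genes were shared in part with other genes.

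A sequence feature that the choice of genes did not use is the TTTGAA motif, the core of the cell cycle genes homology region found in promoters of many genes that peak in mitosis. It was searched on both strands (TTCAAA on the other strand) in RefSeq promoter windows of GRCm38.p6, from 250 bases before to 50 bases after each start. No other motif was searched. Windows were found for 9 of the 10 genes, Aurkb being the exception. Ect2 and Anln hold it more than once, and 1 place is shown for each. The motif was in 7 of these 9, and not in the windows of Chmp4b and Tsg101, while 20.2% of 27025 genes and 17.9% of 32851 windows held it. It was in 16 of 23 other G2 and mitosis genes (69.6%) and in 4 of 22 ESCRT genes (18.2%). These matches are a description and not binding sites. The stretches below are shown because they set Cep55 beside the other genes that hold the motif; they read 5′ to 3′ on the strand of the gene, with the motif in capitals. The Anln stretch also holds TTCAAA, left in lower case.
Cep55: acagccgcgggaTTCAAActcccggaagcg
Kif23: ctgattggcctgTTTGAAatgcgccgggcg
Racgap1: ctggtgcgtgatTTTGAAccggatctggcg
Prc1: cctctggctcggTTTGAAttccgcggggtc
Ect2: ccgtttaccggaTTTGAAacacactcacaa
Anln: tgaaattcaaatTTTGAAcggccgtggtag
Pdcd6ip: caaaagaatcttTTTGAAaatttaatcatc
They lie at chr19:38054996-38055025 on the plus strand (Cep55), chr9:61946780-61946809 on the minus strand (Kif23) and chr15:99651634-99651663 on the minus strand (Racgap1). Those of Prc1 at chr7:80294434-80294463 (plus), Ect2 at chr3:27153975-27154004 (minus), Anln at chr9:22389161-22389190 (minus) and Pdcd6ip at chr9:113708376-113708405 (minus) complete the set. The Cep55 window holds the motif on the opposite strand to the gene. Coordinates are those of the sequence table, since the build behind the deposited files is not given in the sources used here.

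Cep55 split the 5 groups into a lower pair and a higher set of 3. Het R525H libraries had 66.8, 63.3 and 55.7 CPM, in the order of libraries 1 to 3. Het DDX41 libraries had 73.4, 74.4 and 63.6 CPM. These 2 groups overlapped, the lowest Het DDX41 library lying between the Het R525H libraries. Het G173R libraries had 100.6, 95.4 and 97.1 CPM and Het empty libraries had 91.9, 97.8 and 93.1 CPM. WT empty libraries had 92.5, 97.3 and 86.6 CPM. All 6 libraries with R525H or wild-type DDX41 lay below all 9 libraries of the other 3 groups, which overlapped one another. The share of all genes with such a split was not counted. Part of the split was fixed by the choice, since it includes the Het R525H and Het empty values that picked out Cep55. In bulk samples, fewer cells in the stage that uses a gene and less RNA per cell cannot be told apart. The mean length of the Cep55 transcripts that RSEM inferred was 2046 to 2193 bases, with all 5 groups overlapping.

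**Figure D1:**
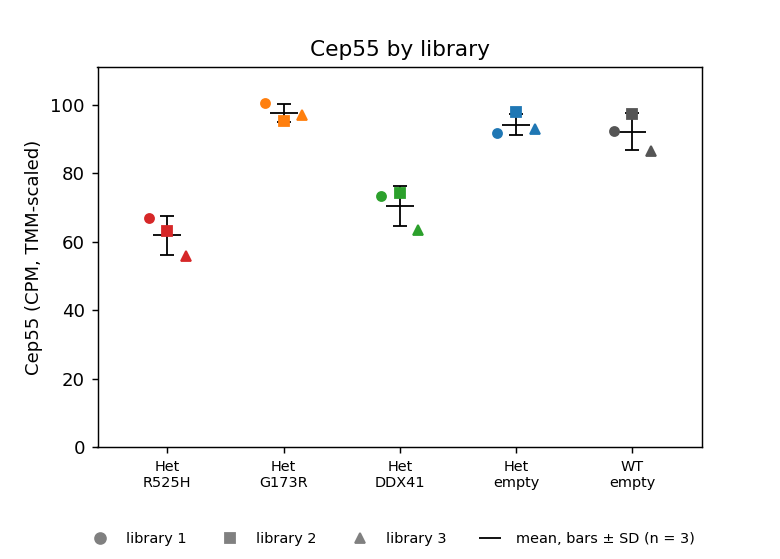
Cep55 in CPM (y axis, TMM-scaled) in each library of the 5 groups (x axis). Points are libraries 1 to 3 of a group and bars are the mean ± SD; Het R525H and Het DDX41 lie between 55.7 and 74.4 CPM and the other 3 groups between 86.6 and 100.6 CPM.

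In the comparison behind the choice of Cep55, the mean was 61.95 ± 5.66 CPM in Het R525H and 94.3 ± 3.15 CPM in Het empty (SD, n = 3 each), a log2 difference of -0.60 (SE 0.08). edgeR calls 2 of all 14548 genes in that comparison (0.0137%), and Cep55 is 1 of them by selection. Its log2 difference was -0.66 (SE 0.08) from Het G173R at 97.7 ± 2.63 CPM and -0.57 (SE 0.08) from WT empty at 92.1 ± 5.37 CPM. Against Het DDX41 at 70.5 ± 5.97 CPM it was -0.19 (SE 0.08), with overlapping libraries. Het DDX41 differed from Het empty by -0.42 (SE 0.08), Het G173R from Het empty by 0.05 (SE 0.08) and Het empty from WT empty by 0.03 (SE 0.08). The sign of the last difference turned to -0.01 with library totals as the scaling.

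Comparisons among Het DDX41, Het G173R and WT empty use neither of the groups whose difference picked out Cep55, though the spread in the fit comes from all 15 libraries. The genes were also chosen with earlier results of these data known. Tests of Cep55 in these comparisons are therefore not independent of that choice. Cep55 fell by 0.39 in log2 in Het DDX41 against WT empty, to 76.5% of the level there (SE 0.08, edgeR adjusted p = 0.0131). All 3 Het DDX41 libraries lay below all 3 of WT empty. Over all genes, Het DDX41 libraries 1 and 2 were closer to each other than any other pair within a group. Cep55 was the 1 member of 10 called in Het DDX41 against WT empty, where 661 of all genes tested (4.54%) were called. With only these 2 groups fitted, edgeR's adjusted p was 0.0489. The call was lost without WT empty library 2 (log2 -0.36, edgeR adjusted p = 0.0511). In Het G173R against WT empty the log2 difference was 0.08 (SE 0.08, 95% interval -0.09 to 0.26, edgeR adjusted p = 0.792). There 0 of 10 members and 3.79% of all genes were called.

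Set directly against Het DDX41, Het G173R had more Cep55 RNA in all 3 libraries, 95.4 to 100.6 CPM against 63.6 to 74.4 CPM. The log2 difference was 0.47 (SE 0.08) and did not pass adjustment over all genes in edgeR (adjusted p = 0.400). Same-numbered libraries of these groups deviated together. With the replicate number as a block the log2 difference was 0.48 (edgeR adjusted p = 0.0288), and Cep55 was the 1 gene called among all genes tested. DESeq2 gave an adjusted p of 0.000484. edgeR called 0 of 14548 genes in this comparison (0%), with 224 genes at an unadjusted p under 0.05, and DESeq2 called 3.

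None of the central spindle genes passed the test in any comparison. Kif23 is the kinesin and Racgap1 the GTPase-activating protein of centralspindlin, the complex that bundles midzone microtubules. Kif23 libraries 1 to 3 had 115.4, 116.5 and 106.0 CPM in Het R525H, 110.0, 106.8 and 103.7 CPM in Het G173R and 107.7, 106.9 and 115.6 CPM in Het DDX41. They had 101.7, 105.7 and 103.0 CPM in Het empty, against 122.1, 131.1 and 103.7 CPM in WT empty. The 4 heterozygous groups overlap WT empty only through its library 3. Het empty averaged 103 ± 2.06 CPM and WT empty 119 ± 13.999 CPM (log2 -0.20, SE 0.08, edgeR adjusted p = 0.288). Without WT empty library 3 this difference was -0.29 and passed the test (edgeR adjusted p = 0.0477). Het R525H libraries all lay above those of Het empty for Kif23 (log2 0.12, SE 0.08), the opposite side to Cep55.

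Racgap1 averaged 116 ± 12.9 CPM in Het R525H, 113 ± 8.31 in Het G173R, 116 ± 9.72 in Het DDX41, 115 ± 4.14 in Het empty and 111 ± 7.93 in WT empty. All 5 groups overlapped. Prc1, which crosslinks antiparallel microtubules, averaged 142 ± 4.45 CPM in Het R525H, 137 ± 6.64 in Het G173R, 148 ± 2.54 in Het DDX41, 143 ± 4.001 in Het empty and 132 ± 14.8 in WT empty. Its Het DDX41 libraries (145.8 to 150.7 CPM) lay above those of WT empty (115.3 to 143.4 CPM). The log2 difference was 0.16 (SE 0.08, edgeR adjusted p = 0.32), and 21% of all genes did not overlap between these groups.

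Aurkb, the kinase of the chromosomal passenger complex, had the widest spread of the 10 within groups, with a coefficient of variation of 12.9%. Its libraries 1 to 3 had 127.5, 131.3 and 96.1 CPM in Het R525H, against 124.4, 140.8 and 134.9 CPM in Het empty. The groups overlapped (118 ± 19.4 and 133 ± 8.28 CPM; log2 -0.17, SE 0.14). Het G173R averaged 132 ± 21.0 CPM, Het DDX41 130 ± 18.1 and WT empty 126 ± 11.03.

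Neither of the 2 genes of the contractile ring passed the test. Ect2, the exchange factor that activates RhoA at the equator, averaged 130 ± 9.54 CPM in Het R525H, 132 ± 14.4 in Het G173R, 137 ± 14.7 in Het DDX41, 136 ± 9.31 in Het empty and 142 ± 19.6 in WT empty. Anln encodes anillin, a scaffold that links actin, myosin and septins. It averaged 166 ± 12.4 CPM in Het R525H, 162 ± 3.11 in Het G173R, 164 ± 6.56 in Het DDX41, 164 ± 7.67 in Het empty and 156 ± 6.44 in WT empty. For both genes all 5 groups overlapped.

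The abscission factors that act with Cep55 at the bridge did not pass the test either. For Pdcd6ip, the adaptor that Cep55 binds, libraries 1 to 3 had 170, 161 and 191 CPM in Het R525H, 157, 167 and 182 in Het G173R, 162, 156 and 176 in Het DDX41, 164, 160 and 168 in Het empty, and 149, 161 and 166 in WT empty. Tsg101, of the ESCRT-I complex, lay between 37.6 and 44.9 CPM in all 15 libraries. Chmp4b, the main filament subunit of ESCRT-III, averaged 111 ± 4.34 CPM in Het R525H, 106 ± 9.14 in Het G173R, 109 ± 0.774 in Het DDX41, 106 ± 6.53 in Het empty and 97.8 ± 10.8 in WT empty. Its log2 difference of 0.19 in Het R525H against WT empty (SE 0.09) was the largest positive one among these 9 genes in any comparison and did not pass the test (edgeR adjusted p = 0.263). The libraries of these groups overlapped.

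**Figure D2:**
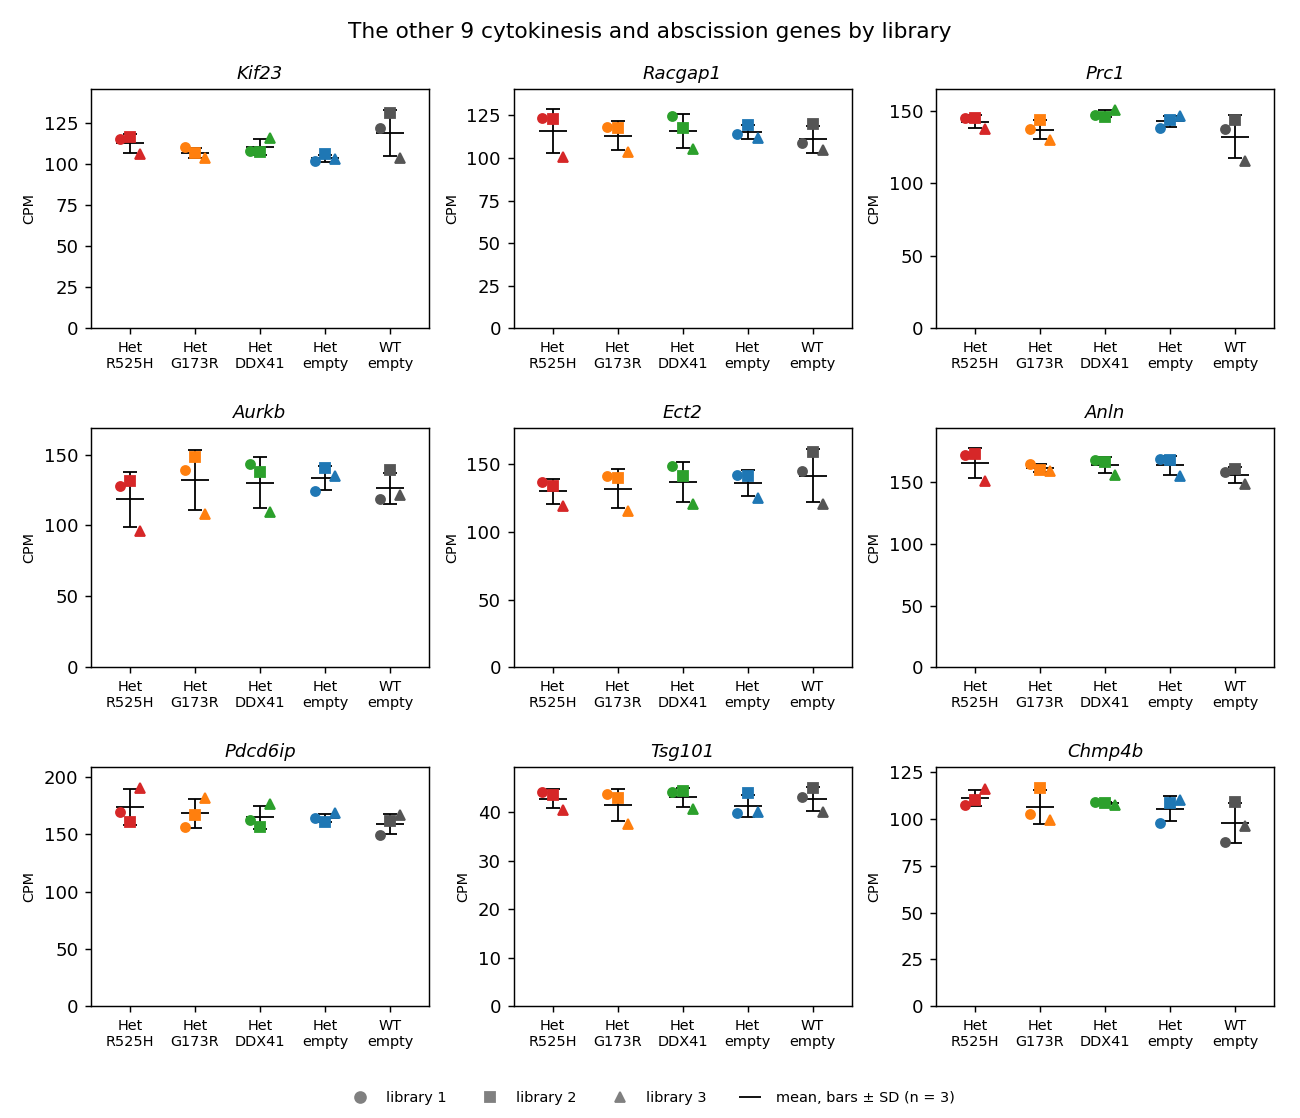
Levels in CPM (y axis) of the 9 genes other than Cep55 in each library of the 5 groups (x axis); points are libraries 1 to 3 and bars are the mean ± SD. Groups overlap widely, and the triangles (library 3) are often the lowest point of their group for Racgap1, Ect2 and Anln and the highest for Pdcd6ip.

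None of the 9 genes other than Cep55 was called by edgeR in any of the 9 comparisons in which they were tested. Their log2 differences ran from -0.20 to 0.19, with standard errors of at most 0.14. The share of all genes called was 6.68% in Het R525H, 3.79% in Het G173R, 4.54% in Het DDX41 and 3.66% in Het empty, each against WT empty. Between heterozygous groups it was 0.0825% in Het R525H against Het G173R and 0% in the other 4 comparisons. At an unadjusted p under 0.05 stood Chmp4b in Het R525H against WT empty and Kif23 in Het empty against WT empty, 1 gene in each. DESeq2 called 0 of the 9 in each comparison. An F test over all 5 groups gave edgeR adjusted p-values of 0.749 to 1 for them, while 538 of all genes (3.7%) passed. The 4 comparisons with WT empty share its 3 libraries.

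The genes with groups that did not overlap were Cep55, Kif23 and Prc1. Against WT empty, 1 gene did not overlap in Het R525H (Cep55; 23.5% of all genes) and 2 in Het DDX41 (Cep55 and Prc1; 21%). There were 0 in Het G173R (15.1% of all genes) and 0 in Het empty (17.2%). Against Het empty, 2 did not overlap in Het R525H (Cep55 and Kif23; 11.6%), 2 in Het DDX41 (Cep55 and Kif23 again; 7.25%) and 0 in Het G173R (2.92%). Against Het DDX41, 1 did not overlap in Het R525H (Prc1, lower; 10.7%) and 2 in Het G173R (Cep55, and Prc1 lower; 6.23%). Cep55 was the 1 gene in Het R525H against Het G173R (11.1%).

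**Figure D3:**
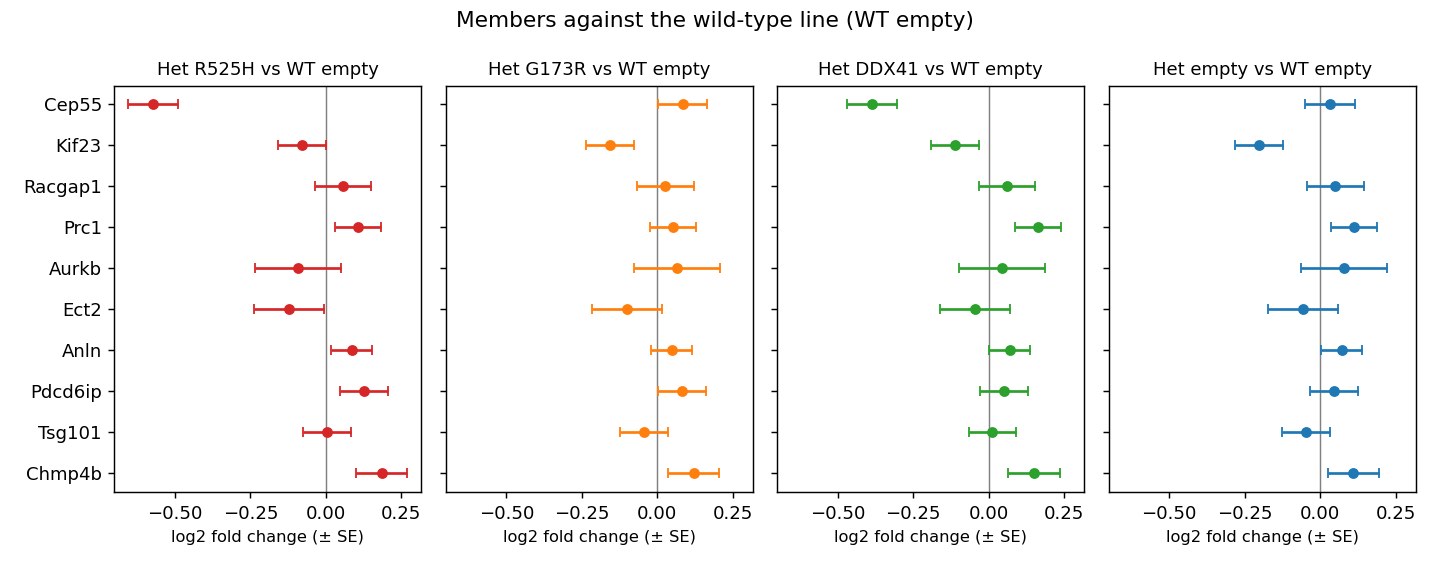
Log2 fold change (x axis, ± SE) of the 10 genes in each heterozygous group against WT empty, which all 4 panels share. Cep55 lies at -0.57 in Het R525H and -0.39 in Het DDX41, while the other 9 genes lie between -0.20 and 0.19 in all panels.

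Measured against the other mitotic genes in the same library, the levels of Cep55 separated further. Cep55 was set over the geometric mean of Kif23, Racgap1, Prc1, Aurkb, Ect2 and Anln in CPM. The share was 46.5 to 49.3% in Het R525H and 50.9 to 55.3% in Het DDX41, which no longer overlapped. It was 70.8 to 81.9% in Het G173R, 70.8 to 72.7% in Het empty and 68.8 to 73.3% in WT empty. How many of all genes would not overlap after this division was not counted. In plain CPM 10.7% of them did not overlap between Het R525H and Het DDX41. Het R525H is also among the groups whose values picked out Cep55. The geometric mean of 28 genes of G2 and mitosis gave the same picture: 46.9 to 49.3% in Het R525H, 70.5 to 84.8% in Het G173R, 52.2 to 54.3% in Het DDX41, 68.98 to 72.6% in Het empty and 70.8 to 75.2% in WT empty. The mean log2 CPM of the 6 genes overlapped between all groups and ran from 6.87 to 7.09 in Het R525H, 6.96 to 7.12 in Het DDX41 and 6.88 to 7.14 in WT empty.

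**Figure D4:**
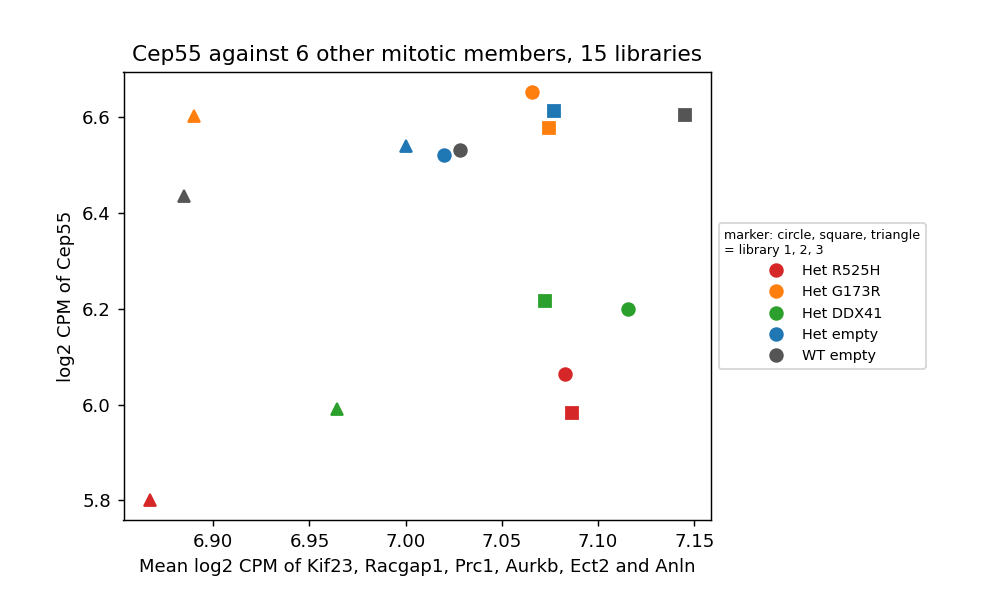
Cep55 (y axis, log2 CPM) against the mean of 6 other mitotic genes (x axis, log2 CPM) in 15 libraries; colour marks the group and shape the library number. The red Het R525H and green Het DDX41 points lie below the rest at any level of the other genes, and the triangles (library 3) of all 5 groups stand toward the left of their group.

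Within groups many of the genes deviated in the same libraries. The library numbered 3 was the lowest of its group in 5 of 5 groups for Racgap1, Ect2 and Anln, in 4 for Tsg101 and in 3 for Cep55, Kif23, Prc1 and Aurkb. It was the highest in 2 groups for Prc1 and in 1 for Kif23. Pdcd6ip was highest in library 3 in 5 of 5 groups. On average library 3 differed from the other libraries of its group by -0.25 in log2 for Aurkb and Ect2, -0.17 for Racgap1, -0.12 for Cep55 and 0.14 for Pdcd6ip. As a description over 15 libraries that share 5 group means, deviations from the group mean had a Pearson r of 0.94 between Racgap1 and Aurkb, 0.91 between Kif23 and Prc1 and 0.85 between Cep55 and Racgap1. Other pairs were lower, with 0.41 between Cep55 and Prc1 and 0.33 between Kif23 and Aurkb, the lowest among the 7 mitotic genes. Pdcd6ip ran the other way, with r of -0.70 with Cep55 and -0.78 with Anln. The part of depth, culture or library preparation in these shifts was not tested.

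The wider cell division machinery was read through lists for the same steps. Of 13 central spindle and chromosomal passenger genes edgeR called 0 in each of the 9 comparisons other than Het R525H against Het empty, and of 17 contractile ring genes likewise 0. Of all genes it called 3.66% to 6.68% against WT empty and 0% to 0.0825% between heterozygous groups in these comparisons. At an unadjusted p under 0.05 stood at most 1 gene of the central spindle list and at most 3 of the contractile ring list. DESeq2 called none of the first list and, of the second, Rock1 and Septin7 in Het R525H against WT empty and Septin7 in Het R525H against Het DDX41. Rock1, a kinase that activates myosin downstream of RhoA, was 217 ± 4.68 CPM in Het R525H and 196 ± 7.97 in WT empty (log2 0.15). Septin7, a core septin, was 204 ± 8.10 CPM in Het R525H and 230 ± 8.32 in WT empty (log2 -0.17). List medians against WT empty ran from -0.03 to 0.05 in log2, beside -0.011 to -0.001 for all genes.

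Few cell cycle genes outside cytokinesis were called. Of 28 genes of G2 and mitosis edgeR called 1, Bub1 in Het DDX41 against WT empty, and of 20 S phase genes 1, Tyms in Het R525H against WT empty, beside 4.54% and 6.68% of all genes in these comparisons. It called 0 of both lists in Het G173R and Het empty against WT empty, beside 3.79% and 3.66% of all genes. In Het R525H it called 0 of 28 G2 and mitosis genes, and in Het DDX41 0 of 20 S phase genes. Bub1, a spindle checkpoint kinase, rose by 0.27 in log2 (164 ± 4.84 against 136 ± 3.85 CPM, edgeR adjusted p = 0.0437), a call lost without any single library of either group (adjusted p 0.0873 to 0.182). Tyms, thymidylate synthase, fell by 0.36 (94.9 ± 6.30 against 122 ± 5.33 CPM, edgeR adjusted p = 0.0332), also lost without any single library (adjusted p 0.0518 to 0.115). In Het DDX41 against WT empty DESeq2 called Tyms as well (98.2 ± 10.6 CPM, log2 -0.31, edgeR adjusted p = 0.0864). Tyms averaged 111 ± 12.6 CPM in Het G173R and 121 ± 1.71 in Het empty. The G2 and mitosis median was 0.01 in log2 in Het R525H, 0.01 in Het G173R, 0.08 in Het DDX41 and 0.06 in Het empty, each against WT empty. Between Het R525H and Het empty it was -0.03, with 23 of 28 genes lower, beside 51.7% of all genes. Between Het G173R and the same Het empty libraries it was -0.05, with 27 of 28 genes lower, beside 51.2% of all genes, and none was called by edgeR or DESeq2.

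Among 30 ESCRT genes, whose products cut the bridge, calls were made between the lines. Against WT empty edgeR called 4 in Het R525H, 2 in Het G173R, 3 in Het DDX41 and 2 in Het empty. The share of all genes called was 6.68%, 3.79%, 4.54% and 3.66% in that order of groups. Chmp2b, an ESCRT-III subunit that links the filament to its disassembly enzyme, rose in all 4 heterozygous groups. Its libraries 1 to 3 had 30.8, 28.1 and 30.5 CPM in Het R525H, 30.4, 28.9 and 32.0 in Het G173R, 28.5, 29.0 and 35.6 in Het DDX41 and 29.6, 29.1 and 31.9 in Het empty, against 15.997, 16.9 and 16.2 in WT empty. Each heterozygous library lay above each of WT empty. The log2 difference from WT empty was 0.86 in Het R525H, 0.89 in Het G173R, 0.92 in Het DDX41 and 0.88 in Het empty (SE 0.09 each; edgeR adjusted p = 4.69e-05, 3.51e-05, 2.46e-05 and 4.15e-05).

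Vps4b, one of the ATPases that take ESCRT-III apart, fell in the same 4 groups. It averaged 166 ± 4.05 CPM in Het R525H, 167 ± 1.87 in Het G173R, 170 ± 9.59 in Het DDX41 and 166 ± 3.19 in Het empty, against 202 ± 9.13 in WT empty. The log2 differences were -0.28, -0.27, -0.25 and -0.28 (edgeR adjusted p = 0.00976, 0.0163, 0.0269 and 0.0143, in that order of groups). Without a low-count filter or with only the compared groups in the fit the 4 calls were lost (adjusted p 0.0504 to 0.213). Leaving out WT empty library 3 ended 3 of them, in Het G173R, Het DDX41 and Het empty (adjusted p 0.0643, 0.0927 and 0.069). Leaving out WT empty 2 ended it in Het DDX41 and Het empty (0.0653 and 0.0547). Without Het DDX41 1 or 2 (0.123 and 0.101), Het empty 1 (0.0667) or Het G173R 2 (0.0635), the call of that group was lost as well.

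Of the other ESCRT genes, Mvb12b, an ESCRT-I subunit, fell by 0.27 in log2 in Het R525H (80.6 ± 3.11 against 97.2 ± 4.39 CPM in WT empty, edgeR adjusted p = 0.0228) and by 0.31 in Het DDX41 (78.6 ± 4.90 CPM, adjusted p = 0.0134). It was 84.1 ± 3.01 CPM in Het G173R, where DESeq2 called it and edgeR did not, and 88.4 ± 2.38 in Het empty, with no call by either. Vps25, of ESCRT-II, fell by 0.31 in Het R525H (37.8 ± 2.67 against 47.0 ± 2.46 CPM in WT empty, edgeR adjusted p = 0.0471). The Mvb12b call in Het R525H was lost without WT empty library 2 or Het R525H library 1 or 3 (adjusted p 0.0538 to 0.0911). Both Mvb12b calls and the Vps25 call were lost with no filter (adjusted p 0.0818 to 0.121) and with only the compared groups fitted (0.0664 to 0.105). The Vps25 call was also lost without WT empty 2 or 3 or Het R525H 2 or 3 (adjusted p 0.111 to 0.136). Set against one another, apart from Het R525H against Het empty, the heterozygous groups gave 0 of 30 ESCRT genes called by edgeR in each of 5 comparisons, beside 0% to 0.0825% of all genes. At an unadjusted p under 0.05 stood at most 1, and DESeq2 called 0. The list medians against WT empty were 0.01 in log2 in each group.

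Of 22 midbody and membrane traffic genes, which include Cep55, another 2 fell, both in all 4 heterozygous groups, beside 3.66% to 6.68% of all genes called in these comparisons. Exoc3, a subunit of the exocyst that tethers vesicles at the bridge, averaged 88.7 ± 10.3 CPM in Het R525H, 85.5 ± 15.03 in Het G173R, 90.7 ± 12.3 in Het DDX41 and 83.8 ± 11.3 in Het empty, against 285 ± 58.6 in WT empty. The log2 differences were -1.68, -1.74, -1.65 and -1.77 (SE 0.17 each; edgeR adjusted p = 3.49e-05, 2.75e-05, 4.39e-05 and 2.46e-05). Stx2, a syntaxin that works in membrane fusion at the bridge, averaged 31.1 ± 0.845 CPM in Het R525H, 37.0 ± 2.03 in Het G173R, 34.8 ± 2.27 in Het DDX41 and 33.6 ± 4.87 in Het empty, against 64.2 ± 6.22 in WT empty. The log2 differences were -1.05, -0.80, -0.88 and -0.93 (edgeR adjusted p = 2.72e-05, 0.000368, 0.000136 and 9.2e-05). For both genes each heterozygous library lay below each of WT empty. The list median against WT empty ran from -0.03 to -0.01 in log2.

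Genes that mark blood cell types differed between the same lines. Flt3, a receptor of early progenitors, averaged 196 ± 19.0 CPM in Het R525H, 258 ± 10.4 in Het G173R, 252 ± 8.67 in Het DDX41 and 233 ± 23.8 in Het empty, against 366 ± 24.9 in WT empty. It fell in all 4 groups (edgeR adjusted p at most 0.00372). DESeq2 and the replicate block also called Flt3 in Het R525H against Het G173R and Het DDX41, where it was lower. The main edgeR fit did not (adjusted p = 0.195 and 0.493). Kit averaged 441 ± 8.48 CPM in Het R525H, 500 ± 10.3 in Het G173R, 470 ± 17.1 in Het DDX41 and 490 ± 25.8 in Het empty. Against 553 ± 36.6 CPM in WT empty, edgeR called it lower only in Het R525H (adjusted p = 0.006), and DESeq2 also called it in Het DDX41. Ptprc, a gene of all white blood cells, rose in all 4, with 295 ± 23.2 CPM in Het R525H, 293 ± 24.2 in Het G173R, 308 ± 26.7 in Het DDX41 and 292 ± 2.02 in Het empty, against 179.5 ± 7.003 in WT empty (edgeR adjusted p at most 0.000121). Adgre1 averaged 158 ± 34.4 CPM in Het R525H, 156 ± 42.2 in Het G173R, 159 ± 36.1 in Het DDX41 and 139.98 ± 21.8 in Het empty, against 273 ± 69.8 in WT empty. The main edgeR fit called it lower in Het empty (adjusted p = 0.0335) and not in the other 3 (0.0603 to 0.0837). DESeq2 and the replicate block called Adgre1 in all 4 heterozygous groups against WT empty. The part of cell makeup in the differences of Cep55, Chmp2b, Vps4b, Mvb12b, Vps25, Exoc3 and Stx2 was not tested.

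**Figure D5:**
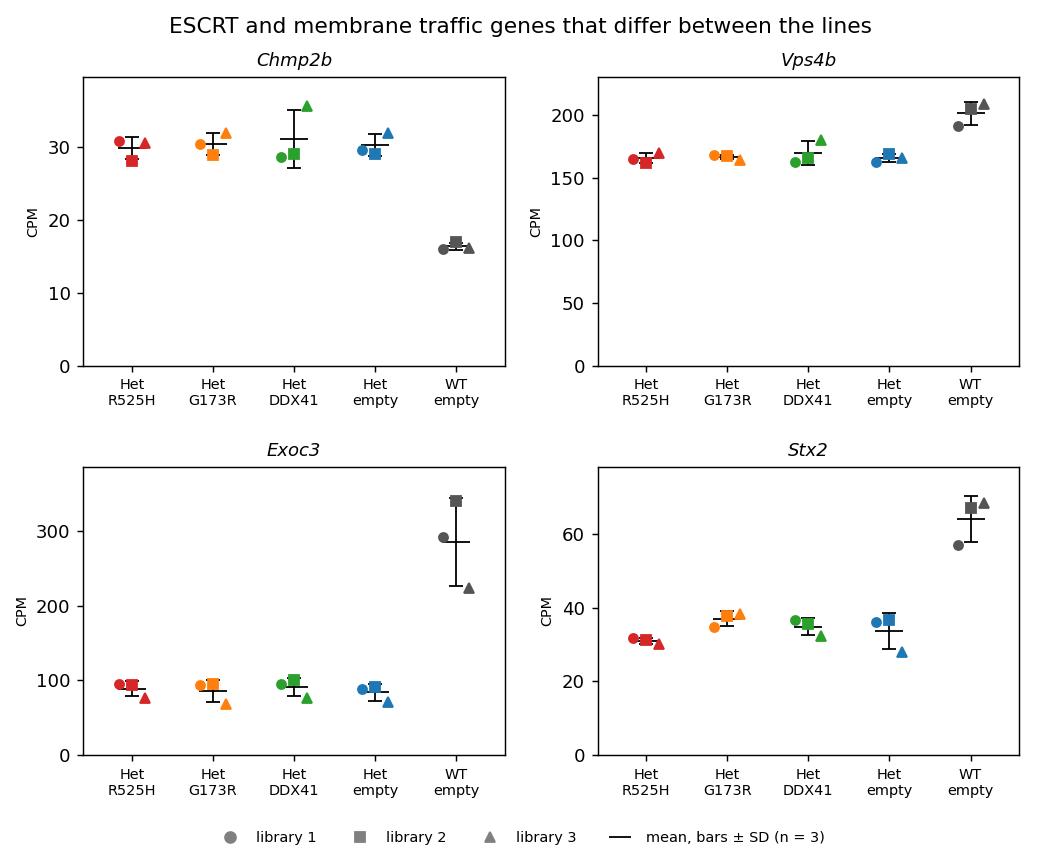
Levels in CPM (y axis) of Chmp2b, Vps4b, Exoc3 and Stx2 in each library of the 5 groups (x axis); points are libraries 1 to 3 and bars are the mean ± SD. Chmp2b is higher, and the other 3 genes are lower, in the 12 heterozygous libraries than in the 3 WT empty libraries.

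The genes most like Cep55 in their levels over the libraries came from outside cytokinesis. The other 9 members were left out of this ranking, and Aurkb had the highest Pearson r with Cep55 among them (0.47). The 5 genes of 9101 with the highest Pearson r with Cep55 over the 15 libraries were Chchd1 (0.93), Timm44 (0.91), Clcc1 (0.90), Stk4 (0.89) and Ankrd13a (0.88). This is a ranking of likeness over libraries that share 5 groups and carries no test. Chchd1, a small protein of the mitochondrial ribosome, averaged 24.1 ± 1.48 CPM in Het R525H, 46.9 ± 9.43 in Het G173R, 32.0 ± 4.92 in Het DDX41, 46.2 ± 3.85 in Het empty and 46.3 ± 5.55 in WT empty. Stk4, a Hippo pathway kinase, averaged 251 ± 17.8 CPM in Het R525H, 431 ± 26.6 in Het G173R, 364 ± 51.2 in Het DDX41, 410 ± 42.6 in Het empty and 466 ± 29.5 in WT empty. Timm44, of the mitochondrial protein import motor, averaged 96.5 ± 4.95 CPM in Het R525H, 124 ± 11.9 in Het G173R, 106 ± 10.4 in Het DDX41, 120 ± 4.68 in Het empty and 119 ± 4.09 in WT empty. In all 3, as in Cep55, the 2 lowest group means were those of Het R525H and Het DDX41, a pattern that picking by likeness to Cep55 favours.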

How the data were processed

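RNA from 15 samples was sequenced; per the labels' protocols the libraries were stranded total RNA after removal of ribosomal RNA. The authors deposited 1 table per sample, made with RSEM per the submitters' processing notes; neither its version, nor the aligner or build, is stated in the sources used here. Expected counts in the deposited tables are estimated counts in which a read that matches several genes is divided (6.26 to 6.92% of genes not whole). Per the file headers the authors also gave TPM and FPKM; only TPM was used, for levels.

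After rounding, expected counts went into edgeR 4.0.16 (R 4.3.3): filterByExpr (14548 genes), TMM scaling, and 1 quasi-likelihood fit by group over all 15 libraries (common dispersion 0.0369). Genes were called at a Benjamini-Hochberg adjusted p under 0.05 over all genes tested. CPM are on TMM-scaled totals, SD is over 3 libraries, and the SE is the size of the log2 difference divided by √F. Intervals are 95%. The fitting steps were tested on simulated data. Alternatives were RLE factors, library totals, no filter, DESeq2 1.42.0, a replicate block, only the compared groups, and leaving out each library. The genes and lists were chosen with earlier results of these data known. Besides the 10 members and Ddx41, the text names up to 4 called genes of a list by smallest p, or 2 where none was called, and the 5 genes most like Cep55 by Pearson r (at least 5 CPM on average, gene models, pseudogenes and the members left out). Replicate numbers, from the titles, were taken as paired where all 3 correlations of same-numbered deviations were over 0.1: Het G173R and Het R525H against Het DDX41 (lowest 0.28 and 0.321), Het R525H against Het G173R (0.287), Het G173R against Het empty (0.181) and Het empty against WT empty (0.358). No replicates were copies of one another in their counts, a check that cannot show whether they came from separate cultures. Het DDX41 libraries 1 and 2 were the closest pair within a group, with a mean chi-square per gene of 3.96 for their difference in counts. Other pairs within a group had 14.7 to 97.7. A marker of another cell type is not reported here.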

Additional observations from a re-analysis of the deposited data

How the results depend on the processing

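RLE factors changed the call of no member and of no gene named from a list, and moved each number of genes called by at most 1.5 times. Other settings moved the numbers of genes called by over 1.5 times as follows. With DESeq2 they were 1009 for Het DDX41 against WT empty, 51 for Het R525H against Het empty, 102 against Het G173R and 32 against Het DDX41, 2 for Het DDX41 and 1 for Het G173R against Het empty, and 3 for Het G173R against Het DDX41. DESeq2 called 1 member, Cep55, in Het G173R against Het DDX41. It also called 1 member in Het DDX41 against Het empty, which is no test, since Cep55 was chosen on Het empty. With the replicate block the counts were 2522, 1453, 1887 and 1352 for Het R525H, Het G173R, Het DDX41 and Het empty against WT empty, and 63, 141 and 59 for Het R525H against Het empty, Het G173R and Het DDX41. In Het G173R against Het DDX41 the block called 1 gene, Cep55 (1 member); it changed no other call of a member. Where the numbers do not pair the libraries, the block also called Kif20b, a kinesin of the central spindle list, lower in Het R525H, Het G173R and Het DDX41 against WT empty. In the same setting it called Rock1 and Septin7 in Het R525H, Mvb12b in Het G173R, Chmp5 and Tyms in Het DDX41, and Chmp5, Vps37c and Bub1 in Het R525H, all against WT empty. Among cell type markers the block also called Pecam1 lower in each heterozygous group and Mpo higher in Het R525H, Het G173R and Het empty. Adgre1 was called lower in Het R525H, Het G173R and Het DDX41, and Kit lower in Het DDX41. Afp, higher in Het R525H, Het DDX41 and Het empty, and Hbb-bs, lower in Het R525H, were at most at 2.87 TPM. With only the compared groups fitted, counts against WT empty were 610 (Het R525H), 278 (Het G173R) and 396 (Het DDX41); Het R525H had 0 genes and 0 members called against Het empty and against Het G173R. With library totals Het R525H had 11 genes called against Het empty and 2 against Het DDX41; with no filter, 5 against Het empty.

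Leaving out single libraries gave 604 to 754 genes for Het R525H, 393 to 549 for Het G173R, 399 to 547 for Het DDX41 and 372 to 459 for Het empty against WT empty. It gave 0 to 3, 0 to 8 and 0 to 2 for Het R525H against Het empty, Het G173R and Het DDX41, and 0 in the other 3. Members called ranged from 0 to 1 in Het DDX41 and Het empty against WT empty and in Het R525H against Het empty and Het G173R. Those of Het R525H against Het empty and Het G173R were fixed by the choice of Cep55 and are no test. Its Het empty difference from WT empty turned to -0.011 with library totals and to -0.0054 without WT empty 3 (range -0.0054 to 0.0727). The causes were not tested.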

Other observations

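On the TPM scale, Kif23 separated the lines: 56.1 to 66.9 TPM in Het R525H, 53.7 to 65.8 in Het G173R, 51.9 to 60.8 in Het DDX41 and 49.5 to 59 in Het empty, against 72.8 to 78 in WT empty. Aurkb did so as well, with 53.1 to 73.3 TPM in Het R525H and 63.3 to 77.1 in Het G173R. It had 60.1 to 77.2 TPM in Het DDX41 and 70.7 to 72.6 in Het empty, against 78.1 to 80.7 in WT empty. The share of all genes that separated the lines on this scale was not counted. The median of 8371 genes on that scale also differed from WT empty, by -0.13 in log2 for Het R525H, -0.18 for Het G173R, -0.18 for Het DDX41 and -0.18 for Het empty. Kif23 differed by -0.28, -0.33, -0.38 and -0.47 in that order of groups, beside that shift. The TPM values of Aurkb also stand beside that shift. In CPM, Aurkb overlapped WT empty in each heterozygous group, with log2 differences of -0.09, 0.07, 0.04 and 0.08 in the same order. The TPM values were noticed after the data were seen and were not tested.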
